A study of Mus musculus with 4 samples.

Results

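Gene expression in injured tibial muscle 1 day after injury (day 1) was compared with that in uninjured tibial muscle (day 0) across all genes, with the unique transcript counts (UMIs) of every spot of a tissue section added together for each gene. The comparison used all 2107 spots of the day 0 section and all 2667 spots of the day 1 section, 4774 of the 10835 spots in the 4 sections of the series. Both muscles came from C57BL/6 mice of the Nse-Bmp4 genotype, aged 6 to 8 weeks. These mice carry a transgene that drives mouse Bmp4 from the neuron-specific enolase promoter, and they form bone inside muscle after injury, a process called heterotopic ossification (HO). The injury was an injection of cardiotoxin, a snake venom toxin that kills muscle fibres. No section came from mice without the transgene, so every difference below is between injured and uninjured tissue of transgenic animals. The labels state that 3 tibial muscles were mixed for a group, and how many of them lie within a section is not given in the sources used here. Sections were fresh frozen and placed on a spatial array, on which every spot captures the RNA of the small area above it, usually from several cells.

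A skeletal muscle fibre is a giant cell packed with contractile proteins, calcium stores and enzymes of energy metabolism, and its messenger RNAs dominate any extract of muscle. When venom breaks the membrane, calcium enters, the fibre dies, and its remains are cleared by leukocytes that arrive from the blood within hours. Neutrophils come first, then monocytes that mature into macrophages, while the fibroblasts between the fibres, called fibro-adipogenic progenitors, and the muscle stem cells are activated over the next days. The first day therefore falls in the phase of damage and recruitment, before new fibres form.

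The day 0 section held 43871586 UMIs and the day 1 section 16777832, and the median spot held 21029 UMIs at day 0 and 6322 at day 1. The mean number of UMIs per spot was 3.31-fold lower at day 1, and 513 spots of day 1 (19.2%) had under 2000 UMIs, against 17 spots (0.807%) of day 0. Levels are given as CPM, the UMIs of a gene scaled to 1000000 UMIs per section, so they describe what share of the captured RNA a gene took and not how much RNA was there. The fast fibre sarcomere genes held in sum 258591 CPM at day 0 and 149075 CPM at day 1, so both sections carried the defining genes of the labelled tissue. The sections shared 1823 spot barcodes, which name fixed positions on the array and recur in every section.

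With 1 section for each day no test was possible, and no p-value is given. A gene is said here to have risen or fallen where its CPM differed at least 2-fold, which is a rule of size. The 95% interval after a log2 ratio is the exact Poisson interval of the ratio of both counts, and it covers counting error only, not the spread between animals or sections. Counts of 0, 1 or 2 UMIs were raised to 3 before a ratio was taken. Of 32285 features, 9996 genes reached 5 CPM in at least 1 of the sections, and these held 99.3% of the UMIs.

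By this rule 1599 of the 9996 genes rose (16.0%) and 860 fell (8.60%). At least 4-fold changes were found for 457 rising (4.57%) and 198 falling genes (1.98%), and at least 8-fold changes for 233 (2.33%) and 49 (0.490%). Changes were thus more often upward, and the more so the larger they were. The excess is partly a matter of scale, because the median log2 ratio of all genes was 0.20. With scaling by the trimmed mean of M values (TMM), which sets the bulk of genes level, all log2 ratios were lower by 0.21, and 1187 genes rose and 1201 fell at least 2-fold. List medians below are therefore given on both scales. Of all genes 4754 (47.6%) lay within 0.5 of a log2 ratio of 0. By mean level, 13.8% rose and 7.20% fell among the 4765 genes at 5 to 20 CPM, 13.3% and 7.82% among the 3631 at 20 to 100 CPM, 23.1% and 11.3% among the 930 at 100 to 1000 CPM, and 27.7% and 18.8% among the 101 above that. Changes in both directions were thus more frequent above 100 CPM than at 5 to 100 CPM. The 569 genes with a mean under 5 CPM, which passed the filter through 1 section only, had 37.6% that rose and 19.2% that fell. In all, 958 genes reached 5 CPM at day 1 only and 519 at day 0 only. Such a gene had to be higher in the section through which it passed, and this holds in each list below. Among the 9038 genes at 5 CPM or more at day 0, 986 rose and 860 fell. Of the genes that rose, 1200 had an interval wholly above 2-fold, and of those that fell 600 had an interval wholly beyond 2-fold lower.

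**Figure D1:**
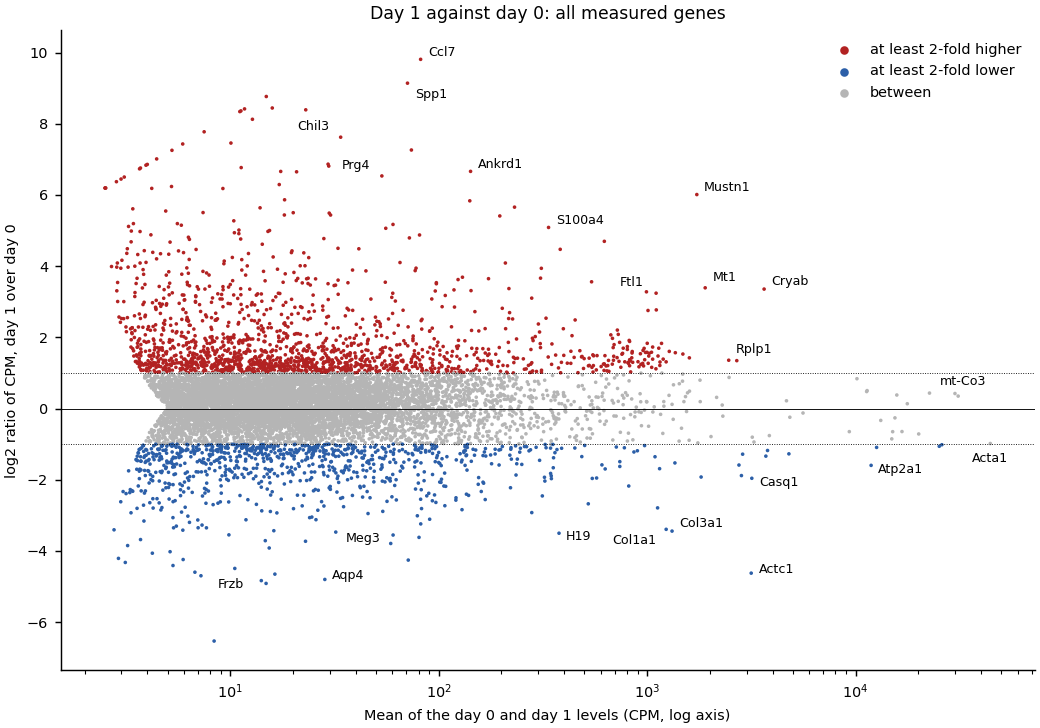
Log2 ratio of day 1 over day 0 (vertical axis) against the mean level of the 2 sections in CPM (horizontal log axis), 1 point for each of the 9996 genes. Chemokine, alarmin and stress genes lie at the top at low and middle levels, and Actc1, collagens and Aqp4 at the bottom. The cloud of all genes sits slightly above 0, at a median of 0.20.

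Most of the rises in share were not rises in UMIs per spot. Only 590 of 9996 genes (5.90%) had more UMIs per spot at day 1 than at day 0, and 280 (2.80%) had at least 2-fold more. Of the 1599 genes that rose in CPM, 1009 had no more UMIs per spot than at day 0. In such tissue, fewer cells of a type and less RNA per cell cannot be told apart, and neither can a lower capture of RNA in the injured section.

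The RNA that the section lost came from few genes, and what it gained was spread over many. In all, 26.3% of the UMIs moved between genes. The 10 genes with the largest losses held 46.9% of all loss, and the 10 with the largest gains 20.1% of all gain. Acta1, the skeletal muscle actin, went from 58809.5 to 29762 CPM and alone made up 11% of the loss. Genes of the fast and slow sarcomere lists took 26.6% of UMIs at day 0 and 15.3% at day 1, or 5537 and 964 UMIs per spot. Transcripts encoded in the mitochondrial genome took 13.5% and 17.8%, and those of cytosolic ribosomal proteins 3.73% and 9.61%. Ribosomal protein genes thus made up 22.4% of all gain and mitochondrial genes 16.4%. In UMIs per spot ribosomal protein transcripts went from 777 to 604, a smaller drop than that of all RNA, and 10 of their 81 genes had more UMIs per spot at day 1. Chaperone, metallothionein, ferritin and ubiquitin transcripts held their number, with 191 UMIs per spot at day 0 and 185 at day 1, so that their share went from 0.916% to 2.94%. Collagen and basement membrane transcripts had the steepest drop of the classes, from 225 to 13.5 UMIs per spot.

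**Figure D2:**
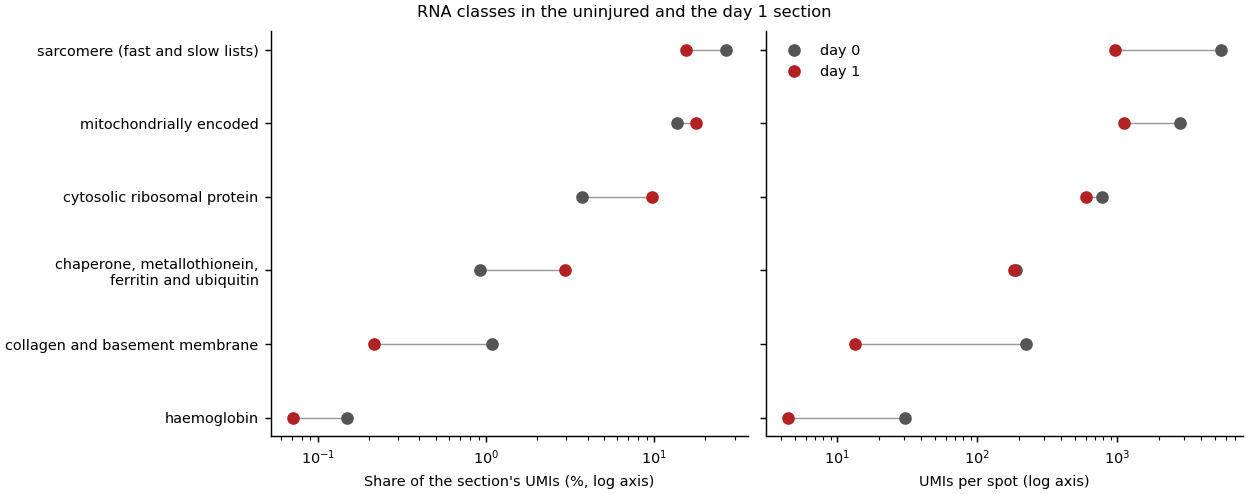
Share of all UMIs in percent (left) and UMIs per spot (right), both on log axes, for classes of transcripts in the day 0 (grey) and day 1 (red) sections. Sarcomere transcripts shrank from 26.6% to 15.3%, ribosomal protein transcripts grew from 3.73% to 9.61%, and collagen and basement membrane transcripts shrank from 1.08% to 0.214%.

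The steepest rises were those of genes that summon and arm blood leukocytes. Among CC chemokines, secreted proteins that attract monocytes and other leukocytes, 6 of 10 measured genes rose and none fell, at a median log2 ratio of 3.42 (3.22 with TMM factors). Ccl7, a ligand of the monocyte receptor Ccr2, had the largest ratio of all measured genes. It had 8 UMIs at day 0 and 2744 at day 1, or 0.182 and 164 CPM, a log2 ratio of 9.81 (8.83 to 11.02). Ccl2, the other main ligand of Ccr2, went from 0.957 to 147 CPM, at 7.26 (6.82 to 7.74). Ccr2 itself went from 3.24 to 108 CPM. The most abundant member was Ccl6, with 33.0 and 732 CPM, followed at day 1 by Ccl9 with 394 CPM. Ccl21a, which guides cells in lymphatic vessels, and Ccl11, which attracts eosinophils, were lower at day 1, at log2 ratios of -0.70 and -0.69 that did not reach 2-fold. Ccr2 and its ligands Ccl2 and Ccl7 thus all rose. Of the 10 measured CC chemokines 3 reached 5 CPM at day 1 only, so that they had to be higher there, and 9 others of the list were not measured. Of the 7 that reached 5 CPM at day 0, 3 rose and none fell.

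Of the CXC and other chemokines, 5 of 8 rose, 4 of which reached 5 CPM at day 1 only, and 1 fell, at a median of 3.66 (3.45 with TMM factors). Cxcl5 and Ppbp, which attract neutrophils, and Pf4, which platelets and macrophages release, were among the risers. Ppbp had 2 UMIs at day 0 and 392 at day 1, and Pf4 went from 45.1 to 571 CPM. Cxcl14, expressed in the resting section at 190.0 CPM, fell to 67.1 CPM, and Cxcl12, which holds stem cells and leukocytes in their niche, was at 89.0 and 60.4 CPM.

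Of the 27 genes of the alarmin and neutrophil list 12 were measured, all of them through day 1 alone, since none reached 5 CPM at day 0. Their direction was therefore fixed by the filter, and their count and their median log2 ratio of 6.73 (6.53 with TMM factors) are a description of these 12 only. The other 15 stayed under 5 CPM in both sections. S100a8 and S100a9, the paired calcium-binding alarmins of neutrophils and monocytes, went together, S100a8 from 0.524 to 58.8 CPM and S100a9 from 0.501 to 58.4 CPM. The log2 ratio of S100a9 was 6.86 (6.26 to 7.54). Csf3r, the receptor for the neutrophil growth factor, went from 0.342 to 34.6 CPM, and Il1b, an inflammatory cytokine, reached 15 CPM from 0.0228 CPM. The genes of granules made in the marrow before neutrophils leave it were at the floor in both sections, with 3 UMIs or fewer of Elane, Mpo, Camp, Ngp and Ltf, and so was Ly6g, a surface marker of mature neutrophils.

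Among monocyte and macrophage genes 24 of 33 rose, 12 of which were measured through day 1 only, and 3 fell, at a median of 2.08 (1.87 with TMM factors). Spp1, the secreted adhesion protein osteopontin, had 11 UMIs at day 0 and 2372 at day 1, or 0.251 and 141 CPM, at 9.14 (8.30 to 10.14). Genes of newly arrived monocytes followed, with Chil3 at 0.342 and 67.4 CPM and Ly6c2 at 0.433 and 33.9 CPM. Arg1, which splits arginine, had 4 UMIs at day 0 and 532 at day 1. The lysosomal glycoprotein gene Cd68 went from 7.18 to 123 CPM and the galectin gene Lgals3 from 8.98 to 453 CPM. The genes that fell mark macrophages that live in resting tissue. Cd209f went from 13.3 to 1.37 CPM, Lyve1 from 9.32 to 2.15 CPM and Retnla from 60.6 to 17.6 CPM, and Timd4, below the level needed to be measured, had 130 UMIs at day 0 and 5 at day 1. Between these extremes, the general macrophage gene Adgre1 went from 8.27 to 35.1 CPM, and Cd163 was at 10.9 and 9.48 CPM. Cd209f and Lyve1, 2 of the 3 that fell, reached 5 CPM at day 0 only, so that they had to be lower at day 1. Of the 21 genes of this list that reached 5 CPM at day 0, 12 rose and 3 fell. Mast cell protease genes fell, Cma1 from 10.1 to 0.477 CPM and Tpsb2 from 6.93 to 0.775 CPM, while the mast cell receptor gene Kit was at 2.32 and 2.56 CPM. All 3 measured mast cell genes reached 5 CPM at day 0 only, so that they had to be lower at day 1. The other 7 of the list were not measured. Of 22 lymphocyte genes only Igkc and Ighm were measured, with log2 ratios of 4.33 and -0.57, so that the median of the pair was above 0 and the ratio of their summed list below it. T cell receptor genes Cd3e, Cd3d and Trac were all under 0.5 CPM at day 1.

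Cytokine receptors, interferon response and antigen presentation rose more moderately. Of 23 cytokine and receptor genes 14 rose and none fell, led by Il1rl1, the receptor for interleukin 33, at 0.957 and 13.8 CPM, and with Socs3, a feedback inhibitor of cytokine signalling, at 3.37 and 29.7 CPM. The list's median was 1.34 (1.13 with TMM factors). Of the 23 genes, 10 reached 5 CPM at day 1 only, so that they had to be higher there. Of the 13 that reached 5 CPM at day 0, 5 rose and none fell. The interferon stimulated list had 17 of 31 genes up and none down, a median of 1.24 (1.03 with TMM factors), with Irf7 at 5.81 and 43.8 CPM and Isg15 at 7.75 and 24.2 CPM. The guanylate-binding protein gene Gbp7 did not share this, at a log2 ratio of -0.85. Of the 31 interferon stimulated genes, 10 reached 5 CPM at day 1 only and 2 at day 0 only. Of the 21 that reached it at day 0, 7 rose and none fell. In antigen presentation 10 of 17 rose and none fell, a median of 1.35 (1.14 with TMM factors). The class II genes H2-Ab1 (42.4 to 139 CPM) and Cd74 (75.7 to 227 CPM) rose, whereas the class I genes H2-K1 and B2m, which most cells express, were within 2-fold, at 0.36 and 0.33.

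The complement list split in 2 directions, with 5 genes up, 6 down and 7 in between among 18, and a median of 0.47 (0.26 with TMM factors). The receptors of the split products C3a and C5a rose, C3ar1 from 2.78 to 62.9 CPM and C5ar1 from 6.29 to 41.4 CPM. The proteases that start the classical pathway fell, C1ra from 31.3 to 9.66 CPM and C1s1 from 55.1 to 17.5 CPM, and so did the inhibitors Serping1 (114 to 52.5 CPM) and Cd55 (49.4 to 22.2 CPM). Receptor genes were thus higher at day 1, and those of the first proteases and of these inhibitors were lower.

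The coagulation and fibrinolysis list had 10 of 21 genes up and 3 down, a median of 0.88 (0.67 with TMM factors). Of the 21, 5 reached 5 CPM at day 1 only and 2 at day 0 only. Among the 16 that reached it at day 0, 5 rose and 3 fell. The clotting protease genes F7 and F10 went from 0.182 to 6.32 CPM and from 0.0684 to 7.27 CPM. Plaur, the receptor of urokinase, rose from 1.57 to 16.9 CPM, and Thbd, which turns thrombin against clotting, from 39.0 to 191 CPM. Tissue factor (F3) and von Willebrand factor (Vwf), which start clotting and hold platelets, fell from 7.36 to 3.16 CPM and from 37.9 to 18.7 CPM. Platelet genes Pf4 and Ppbp are members of this list as well as of the chemokine list.

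Some of the steepest rises at high levels were those of genes of the muscle fibre, which come from several lists and were put side by side here after their values were seen. Mustn1, a small muscle nuclear protein, went from 52.9 to 3408 CPM, a log2 ratio of 6.01 (5.95 to 6.07), and had the largest ratio of any gene above 1000 CPM. Ankrd1, a titin-binding ankyrin repeat protein, went from 2.78 to 282 CPM, at 6.66 (6.40 to 6.93), its relative Ankrd2 from 67.3 to 385 CPM, and Csrp3, the muscle LIM protein of the Z-disc, from 46.3 to 1199.7 CPM. Rrad, a small GTPase that restrains calcium channels, went from 4.86 to 277 CPM. The filamin gene Flnc (283 to 1929 CPM) and the adhesion protein gene Xirp1 (135 to 478 CPM) also rose. Unlike the bulk of the genes that rose in CPM, these genes also had more UMIs per spot. Mustn1 had 1.10 UMIs per spot at day 0 and 21.4 at day 1, and Ankrd1 had 0.0579 and 1.77.

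The slow sarcomere list rose as well, with 10 of 13 genes up at a median of 1.45 (1.24 with TMM factors), although its summed level went down, at a log2 ratio of -0.79, because Actc1 fell. Ankrd1, Ankrd2 and Csrp3 are part of this list, and the contractile genes in it rose less than they did. Myh7, the slow myosin heavy chain, went from 89.3 to 227 CPM, Tnni1, the slow troponin I, from 29.0 to 101 CPM, and Tpm3 from 76.8 to 219 CPM.

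Heat shock genes differed widely in their ratios. Small heat shock proteins that hold up the sarcomere rose, Cryab from 648 to 6631 CPM, Hspb7 from 84.6 to 998 CPM, Hspb1 from 257 to 1182 CPM and Hspb8 from 287 to 766 CPM. Cryab, a chaperone of desmin, gained 5983 CPM, the largest gain outside the mitochondrial genome, and its log2 ratio was 3.35 (3.34 to 3.37). Other small heat shock genes did not move with them, since Hspb6 was at 516 and 552 CPM and Hspb3 at 59.7 and 40.6 CPM. The inducible chaperones of the cytosol were low in both sections, although Hspa1a rose from 9.87 to 22.8 CPM. The constitutive Hspa8 was at 1400.2 and 1601 CPM. Of the 28 genes 7 rose and none fell, so the list's median was only 0.33 (0.13 with TMM factors) while its summed level rose at a log2 ratio of 1.45.

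Metallothioneins, small proteins that bind zinc and copper and are switched on by metal ions, had a median log2 ratio of 3.39 (3.18 with TMM factors) over 3 measured genes. Mt1 went from 331 to 3466 CPM and Mt2 from 185 to 1798 CPM, ratios of 10.5 and 9.70. Mt3, best known from brain, went from 9.03 to 384 CPM, and Mt4, known from skin epithelium and named here after its value was seen, had 1 UMI at day 0 and 499 at day 1. These 4 genes sit next to each other, and with their neighbour Nup93 they formed a run of 5 adjacent measured genes that all rose, at chr8:94137204-94328100 of mouse build GRCm38.p6. Their promoters are shown because metal response elements are the best known control sites of the family. The 250 bases before the RefSeq start of Mt1 (chr8:94178839-94179088, plus strand) and Mt2 (chr8:94172368-94172617, plus strand) are printed here 5′ to 3′. Capitals mark matches on either strand to TGCNCNC, a pattern looser than the core of that element.
Mt1: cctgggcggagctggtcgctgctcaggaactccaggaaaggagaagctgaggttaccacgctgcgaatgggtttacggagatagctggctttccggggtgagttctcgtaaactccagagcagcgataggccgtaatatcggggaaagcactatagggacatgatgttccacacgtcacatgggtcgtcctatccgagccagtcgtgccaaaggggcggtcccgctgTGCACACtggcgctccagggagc
Mt2: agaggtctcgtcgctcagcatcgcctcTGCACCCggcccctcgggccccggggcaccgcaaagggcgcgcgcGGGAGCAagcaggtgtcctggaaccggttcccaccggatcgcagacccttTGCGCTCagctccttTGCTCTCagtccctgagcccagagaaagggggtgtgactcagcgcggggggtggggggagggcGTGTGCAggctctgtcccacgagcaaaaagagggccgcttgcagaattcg
The window of Mt2 held 5 matches and that of Mt1 held 1, and a match to this loose pattern need not be an element. Sites outside these 250 bases were not counted, so these are not the numbers of elements of the whole promoters. The pattern is short, and 44.4% of the 32851 RefSeq promoters of this length held at least 1 match. Among measured genes the share was 52.9%, against 47.7% of those that rose at least 4-fold and 55.1% of those that fell at least 4-fold.

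Genes of heme, iron and oxidative stress rose with the metallothioneins. Hmox1, which breaks down heme, went from 3.53 to 79.2 CPM, at 4.49 (4.25 to 4.74). The ferritin light and heavy chains, which store the iron set free, rose, Ftl1 from 211 to 1996 CPM and Fth1 from 1521 to 3861 CPM. The transferrin receptor gene Tfrc, through which cells import iron, fell from 201 to 66.5 CPM. In the iron and heme list 8 of 16 rose and 1 fell, at a median of 0.91 (0.70 with TMM factors). Of these 16, 3 reached 5 CPM at day 1 only, Hmox1 among them. Of the 13 that reached it at day 0, 5 rose and 1 fell. In the oxidative stress and Nrf2 list 15 of 26 rose and none fell, at a median of 1.31 (1.10 with TMM factors). Srxn1, which repairs oxidised peroxiredoxins, went from 15.8 to 179 CPM, thioredoxin (Txn1) from 96.1 to 558 CPM and Gpx1 from 115 to 466 CPM. Sod1 and Sod2, which remove superoxide, stayed within 2-fold at -0.00062 and -0.37.

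Other stress programmes rose in part. The unfolded protein response of the endoplasmic reticulum had 10 of 18 genes up and none down, a median of 1.12 (0.91 with TMM factors), with the chaperone gene Hspa5 going from 209 to 587 CPM and the factor Manf from 56.3 to 211 CPM. Of 16 p53 target genes 8 rose and none fell, at a median of 1.13 (0.92 with TMM factors). Of these 16, 3 reached 5 CPM at day 1 only, Eda2r among them. Of the 13 that reached it at day 0, 5 rose and none fell. Eda2r went from 3.10 to 39.0 CPM and the pro-apoptotic Bax from 18.9 to 72.8 CPM, while Cdkn1a, the cell cycle inhibitor p21, was within 2-fold at 0.87 and Ccng1 just inside the lower bound at -1.0. In the Atf4 list, which answers lack of amino acids, 10 of 19 rose and 1 fell, at a median of 1.03 (0.82 with TMM factors). Of these 19, 3 reached 5 CPM at day 1 only, Gdf15 among them. Of the 16 that reached it at day 0, 7 rose and 1 fell. Gdf15, a stress hormone, had 10 UMIs at day 0 and 120 at day 1, and the translation repressor gene Eif4ebp1 went from 58.2 to 276 CPM. The gene that fell, Ddit4, an inhibitor of the growth kinase mTOR, went from 148 to 15.7 CPM, at -3.24 (-3.43 to -3.06). Genes of low oxygen did not move as a group, with 4 of 20 up and 3 down and a median of 0.23 (0.024 with TMM factors) that is close to 0 on either scale and below 0 for the summed level. The glucose importer Slc2a1 went from 7.39 to 28.5 CPM, whereas Vegfa, the main growth factor of vessels, went from 94.1 to 22.9 CPM.

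Immediate early genes, which answer a stimulus within minutes, were raised for 11 of 25 and lowered for 2, at a median of 0.90 (0.69 with TMM factors). Fosl1, a partner of Jun in the AP-1 factor, had 2 UMIs at day 0 and 372 at day 1. Junb went from 9.46 to 64.5 CPM, Myc from 5.52 to 32.2 CPM and Atf3 from 9.25 to 48.3 CPM. The nuclear receptor genes Nr4a1 and Nr4a3, which muscle activity induces, fell from 247 to 64.3 CPM and from 46.2 to 6.38 CPM. Jun was at 48.5 and 60.3 CPM. Of the 25 genes, 3 reached 5 CPM at day 1 only, Fosl1 among them. Of the 22 that reached it at day 0, 8 rose and 2 fell.

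Genes for making proteins rose broadly. Of the 81 cytosolic ribosomal protein genes, a list added after the values were seen, 73 rose and 1 fell, at a median of 1.37 (1.16 with TMM factors). The one that fell was Rpl3l, the form particular to striated muscle, from 507 to 215 CPM, while its counterpart Rpl3 rose from 112 to 497 CPM. In ribosome biogenesis 14 of 30 rose and none fell, a median of 0.91 (0.70 with TMM factors), led by Nhp2 (38.9 to 151 CPM) and with Npm1 (84.7 to 249.6 CPM) and Ncl (103 to 251 CPM). Among translation factors 9 of 23 rose and 1 fell, a median of 0.87 (0.66 with TMM factors). That one was Eef1a2, the muscle form of the elongation factor, from 1336 to 295 CPM, as the general form Eef1a1 rose from 469.7 to 1190.1 CPM. Mitochondrial ribosome genes stayed mostly within 2-fold, with 3 of 28 up and a median of 0.53 (0.32 with TMM factors).

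Genes for breaking proteins down differed between lists. The proteasome list had 7 of 33 up (21.2%), close to the 16.0% of all measured genes, and none down, with a narrow spread, from -0.12 for Psmd6 to 1.71 for Psmd8, and a median of 0.75 (0.54 with TMM factors). The muscle ubiquitin ligases Fbxo32 (atrogin-1) and Trim63 (MuRF1), which tag fibre proteins for the proteasome, rose from 25.6 to 321 CPM and from 278 to 1176 CPM. Other ligases of the muscle atrophy list went the other way, Fbxo40 from 241 to 95.4 CPM and Trim55 from 7.39 to 2.56 CPM, so that 6 of 19 rose and 3 fell at a median of 0.59 (0.38 with TMM factors). The transcription factors Foxo1 and Foxo3 that drive atrophy genes were at -0.66 and -0.60. The lysosome list had 16 of 29 up and 1 down, a median of 1.13 (0.92 with TMM factors). Its steepest members were those of phagocytes, Cd68, Ctss (9.85 to 144 CPM) and Lgmn (58.3 to 500.3 CPM), whereas the fibre enzyme Gaa, which digests glycogen, was at -0.21. Of 24 autophagy genes 6 rose, at a median of 0.36 (0.16 with TMM factors), among them the cargo receptor Sqstm1 (274 to 723 CPM).

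The cytoskeleton and migration list had 23 of 34 genes up and none down, a median of 1.42 (1.21 with TMM factors). S100a4, a calcium-binding protein of motile cells, went from 19.2 to 654 CPM, at 5.09 (4.99 to 5.19), and Tubb6, a tubulin, from 38.3 to 396 CPM. The leukocyte actin regulators Coro1a (9.51 to 146 CPM) and Lcp1 (11.5 to 109 CPM) rose more than actin itself, since Actb was at 0.97. Cell cycle genes rose for 10 of 21, and apart from E2f1 and the mitotic kinase gene Aurkb those that rose were genes of DNA replication, such as Cdt1 (2.92 to 21.2 CPM), Mcm5 (4.97 to 19.5 CPM) and Pcna (32.4 to 109.7 CPM). Other genes of dividing cells stayed within 2-fold, with Mki67 at 11.6 and 8.28 CPM, Ccna2 at 7.52 and 6.08 CPM and Top2a at 7.45 and 9.72 CPM. The median of this list was 0.76 (0.56 with TMM factors). Of its 21 measured genes, 6 reached 5 CPM at day 1 only and 1 at day 0 only. Of the 15 that reached it at day 0, 5 rose and none fell.

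Of 19 nucleotide synthesis genes 8 rose and none fell, a median of 0.60 (0.39 with TMM factors), and Rrm2, the subunit of ribonucleotide reductase tied to DNA replication, went from 4.83 to 17.2 CPM. The polyamine and arginine list had 5 of 13 up and 2 down, a median of 0.60 (0.39 with TMM factors). Odc1, the first enzyme of polyamine synthesis, rose from 50.2 to 353 CPM, and the arginine importer gene Slc7a2 fell from 43.7 to 18.8 CPM. Cholesterol and sterol synthesis genes stayed within 2-fold for 19 of 20, the exception being Fdft1 (21.4 to 46.3 CPM), at a median of 0.26 (0.055 with TMM factors).

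**Figure D3:**
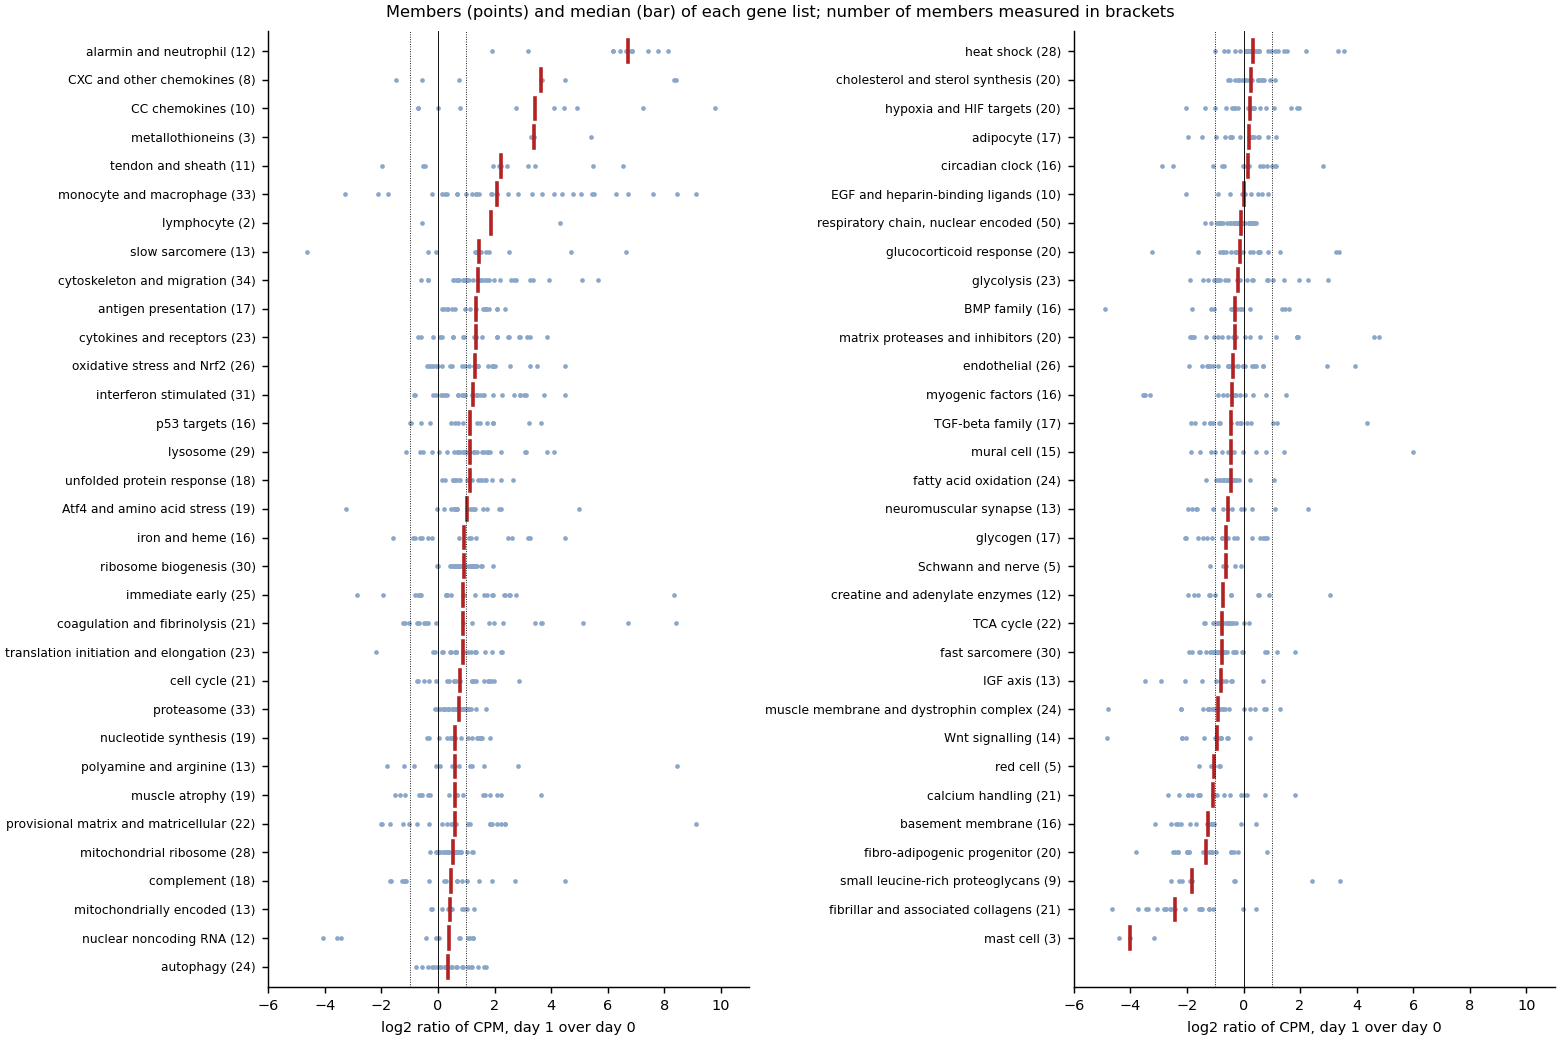
Log2 ratio of day 1 over day 0 (horizontal axis) for the genes of each list, in 2 panels ordered by list median. A point is 1 measured gene, the red bar is the median of its list, the number measured stands in brackets, and dotted lines mark 2-fold. Alarmin and chemokine lists stand at the top and collagen and mast cell lists at the bottom, and the genes of most lists lie on both sides of 0. All measured alarmin and mast cell genes passed the filter through 1 section only, which fixed their direction. The ribosomal protein and imprinted gene lists are not drawn.

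Among falling genes, the contractile apparatus lost most RNA but did not have the steepest ratios. Of 30 fast sarcomere genes 10 fell and 2 rose, at a median of -0.76 (-0.97 with TMM factors). Myh4, the fastest and most abundant myosin heavy chain, went from 34065 to 16325 CPM, and Myh1, a related fast form, from 2873 to 757 CPM, at -1.06 and -1.92. Titin (Ttn) was at -0.76 and nebulin (Neb) at -0.89. The small regulatory proteins of the thin filament changed least, with troponin C (Tnnc2) at 16845 and 14038 CPM and troponin I (Tnni2) at 14726 and 11679 CPM. Besides Xirp1, Nrap, which anchors filaments to the membrane, rose from 368 to 834 CPM.

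Actc1, the cardiac actin, which muscle also makes when fibres grow or regenerate, fell far more steeply than the skeletal form. It went from 6066 to 246 CPM, 24.7-fold lower, at -4.62 (-4.67 to -4.58), whereas Acta1 was 1.98-fold lower, at -0.98. The promoters of both actins and of Ankrd1 are shown because they are textbook targets of the factors that read mechanical load in muscle. The windows are the 250 bases before the RefSeq start on the minus strand of GRCm38.p6, for Actc1 at chr2:114052876-114053125, for Acta1 at chr8:123894776-123895025 and for Ankrd1 at chr19:36119845-36120094. Capitals mark CArG boxes, bound by serum response factor, in the actin genes and matches to CATTCC, the MCAT core, on either strand in Ankrd1.
Actc1: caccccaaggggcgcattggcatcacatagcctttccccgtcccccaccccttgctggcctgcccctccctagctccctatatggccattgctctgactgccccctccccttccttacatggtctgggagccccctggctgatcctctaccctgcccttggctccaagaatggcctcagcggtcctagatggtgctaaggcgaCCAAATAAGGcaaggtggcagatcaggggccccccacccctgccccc
Acta1: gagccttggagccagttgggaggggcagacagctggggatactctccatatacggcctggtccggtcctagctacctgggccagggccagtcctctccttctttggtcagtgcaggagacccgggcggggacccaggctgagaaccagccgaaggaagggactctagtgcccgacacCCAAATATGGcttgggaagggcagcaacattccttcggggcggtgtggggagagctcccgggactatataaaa
Ankrd1: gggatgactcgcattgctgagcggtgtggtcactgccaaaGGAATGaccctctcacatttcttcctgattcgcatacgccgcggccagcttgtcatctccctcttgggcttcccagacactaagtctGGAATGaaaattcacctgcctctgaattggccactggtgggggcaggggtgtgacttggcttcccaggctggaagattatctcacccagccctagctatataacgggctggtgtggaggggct
Each actin window held 1 CArG box, a motif present in 1.47% of all promoters, in 1.31% of those of measured genes, in 1.41% of those of genes that rose at least 4-fold and in 2.04% of those that fell as much. The Ankrd1 window held 2 MCAT cores, present in 12.6%, 10.4%, 9.04% and 15.6%. The Acta1 window also held 1 MCAT core, not marked here, and the Actc1 window held 0. The part of these motifs in the ratios was not tested.

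Of the calcium handling genes 13 of 21 fell and 1 rose, at a median of -1.07 (-1.28 with TMM factors). Atp2a1, the calcium pump of the fast fibre, went from 17839 to 5896 CPM, and Casq1, which binds calcium inside the store, from 5055 to 1299 CPM. Sypl2, a protein of the triad, had the lowest ratio, from 902 to 141 CPM, at -2.68 (-2.74 to -2.62). Ryr1, the release channel, was at -0.69, and Cacng1, a channel subunit, at 0.13. The one riser was Sln, a small inhibitor of the pump, from 12.2 to 43.6 CPM.

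Genes of the fibre membrane fell for 9 of 24 and rose for 1, at a median of -0.89 (-1.10 with TMM factors). Aqp4, the water channel of fast fibres, went from 54.9 to 1.97 CPM, at -4.80 (-5.34 to -4.31), the lowest ratio of the genes at 50 CPM or more. Ank1 went from 364 to 77.8 CPM and Atp1b2, a subunit of the sodium pump, from 227 to 31.6 CPM. Dystrophin (Dmd) was at 52.5 and 25.5 CPM. Itga7, the laminin receptor of muscle, rose from 54.0 to 132 CPM, and desmin (Des) was higher but within 2-fold, at 1309.9 and 2275 CPM. At the neuromuscular synapse, where the nerve meets the fibre, 5 of 13 genes fell and 2 rose, with a median of -0.57 (-0.77 with TMM factors). The adult receptor subunit Chrne (20.6 to 5.25 CPM) and the esterase Ache (27.8 to 7.81 CPM) fell, and the organising kinase Musk (1.07 to 5.25 CPM) rose. Of the 13 synapse genes, 2 reached 5 CPM at day 1 only, Musk among them, and 1 at day 0 only. Of the 11 that reached it at day 0, none rose and 5 fell.

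Energy metabolism did not fall as one block. Glycogen genes fell for 6 of 17 and rose for none, a median of -0.61 (-0.82 with TMM factors), with the phosphorylase Pygm going from 4069 to 1672 CPM. Creatine and adenylate enzymes fell for 6 of 12 and rose for 1 (Ampd3), a median of -0.73 (-0.94 with TMM factors), with muscle creatine kinase (Ckm) going from 34717 to 17149 CPM. The TCA cycle had 3 of 22 genes down and none up, a median of -0.76 (-0.96 with TMM factors), Pdha1 going from 514 to 197 CPM. Fatty acid oxidation had 1 of 24 down and 1 up, a median of -0.46 (-0.67 with TMM factors). Glycolysis had 5 of 23 up and 4 down, a median of -0.20 (-0.41 with TMM factors), and those that fell included the abundant muscle enzymes Pgam2 from 4458 to 1208 CPM and Eno3 from 6771 to 2800.2 CPM. Gapdh, often used as a reference gene, was at 5838 and 5348 CPM.

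The respiratory chain was the flattest of these groups. Of 50 nuclear genes none rose and 2 fell, and the median was -0.10 (-0.31 with TMM factors). The range within the list ran from -1.36 for Atp5g3 to 0.44 for Cox7c. Of the 13 mitochondrially encoded genes 2 rose and none fell, a median of 0.43 (0.23 with TMM factors), from -0.25 for mt-Nd3 to 1.27 for mt-Nd4l. The most abundant, mt-Co3, was at 27315 and 34784 CPM. The 10 highest genes within 0.1 of a log2 ratio of 0 were Atp5e, Mb, Chchd10, Atp5g1, Uqcr11, Atp5c1, Cox4i1, Cox7b, Cox5a and Park7. Of these, 7 encode respiratory chain or ATP synthase subunits, and Mb is myoglobin, the oxygen store of the fibre, at 1175 and 1230.1 CPM. In UMIs per spot Mb went from 24.5 to 7.74, so level in share again meant fewer transcripts per spot.

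Among lists with at least 5 measured genes, the lowest median was that of connective tissue matrix. Of 21 fibrillar and associated collagen genes 19 fell and none rose, a median of -2.44 (-2.65 with TMM factors). Col3a1 went from 2411 to 222 CPM, Col1a1 from 2253 to 214 CPM and Col1a2 from 1961 to 283 CPM. The log2 ratio of Col1a1 was -3.39 (-3.44 to -3.35). Elastin (Eln), which makes tissue springy, went from 145 to 20.6 CPM. Fbln2 and Col12a1 were the exceptions, at -0.003 and 0.43. The basement membrane that wraps every fibre followed, with 14 of 16 genes down and none up, a median of -1.27 (-1.48 with TMM factors). Nid1, the linker nidogen, went from 150.3 to 28.8 CPM, Lama2, the laminin of muscle, from 69.3 to 14.8 CPM, and Col4a1 from 509 to 229 CPM. Col18a1 and Lama5 stayed within 2-fold, at 0.45 and -0.10.

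Small leucine-rich proteoglycans, which decorate collagen fibrils, fell for 5 of 9 and rose for 2, a median of -1.83 (-2.04 with TMM factors). Decorin (Dcn) went from 546 to 147 CPM and lumican (Lum) from 139.9 to 23.9 CPM. The pair that rose, Fmod (16.1 to 87.2 CPM) and Chad (1.19 to 12.7 CPM), belongs to tendon and cartilage. The tendon and sheath list rose for 8 of 11 genes, 5 of them measured through day 1 only, and fell for 1, a median of 2.24 (2.03 with TMM factors). Prg4, the lubricant of gliding surfaces, went from 1.14 to 106 CPM and Angptl7 from 1.30 to 58.4 CPM, and the tendon factor Scx from 5.27 to 20.4 CPM. Tnmd, a marker of tendon cells, was at 7.18 and 5.19 CPM, and Cilp, of the same list, fell from 93 to 23.8 CPM. The part that tendon or sheath cut into 1 section and not the other had in these values was not tested.

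Marker genes of fibro-adipogenic progenitors fell for 14 of 20 and rose for none, a median of -1.33 (-1.54 with TMM factors). Clec3b (tetranectin) went from 109.8 to 7.93 CPM, Pi16 from 73.2 to 13.1 CPM and Smoc2 from 267 to 53 CPM. Their defining receptor gene Pdgfra was within 2-fold, at 24.1 and 17.8 CPM, and the surface marker gene Ly6a (Sca-1) was higher but within 2-fold, at 163 and 291 CPM. Of 22 genes of the provisional wound matrix 10 rose and 5 fell, a median of 0.59 (0.38 with TMM factors) with a summed level that was lower, at -0.24. Tgfbi (52.2 to 197 CPM), tenascin C (Tnc, 4.97 to 25.9 CPM) and the receptor Cd44 (16.9 to 87.9 CPM) rose, and Sparc (1752 to 543 CPM) and Postn (92.2 to 23.3 CPM) fell. Matrix proteases and their inhibitors had 6 of 20 up and 6 down, a median of -0.31 (-0.52 with TMM factors). Timp1, an inhibitor of matrix proteases, went from 5.04 to 139.6 CPM, whereas Mmp2 fell from 132 to 38.4 CPM.

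Genes of growth factor families mostly fell or stayed within 2-fold. Of 14 Wnt genes 6 fell and none rose, a median of -0.93 (-1.14 with TMM factors), and 4 of those that fell were the secreted antagonists Frzb, Sfrp1, Sfrp2 and Sfrp4. Frzb went from 27.2 to 0.954 CPM, at -4.83 (-5.65 to -4.13). Of the 14 Wnt genes 8 reached 5 CPM at day 0 only, so that they had to be lower at day 1. Another 12 genes of the list were not measured. The IGF axis had 4 of 13 down and none up, a median of -0.81 (-1.02 with TMM factors), with Igf1 going from 67.7 to 24.4 CPM, Igf2 from 58.8 to 5.30 CPM and the binding protein gene Igfbp5 from 494 to 65.1 CPM. The TGF-beta list had 6 of 17 down and 3 up, a median of -0.44 (-0.64 with TMM factors), with Smad3 going from 46.0 to 13.9 CPM and Tgfb1, the ligand that leukocytes release, from 11.1 to 22.9 CPM. Of these 17, 2 reached 5 CPM at day 1 only and 1 at day 0 only. Of the 15 that reached it at day 0, 1 rose and 6 fell.

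The BMP family, which the transgene acts through, had 3 of 16 genes up (18.75%), 4 down (25%), and a median of -0.30 (-0.51 with TMM factors). This median stayed below 0 under each scaling while the summed level was level at 0.031. Of all measured genes 16.0% rose, close to the share in this list, and 8.60% fell. Of the 16 genes, 4 reached 5 CPM at day 0 only, so that they had to be lower at day 1. Bmp4, the ligand, went from 9.48 to 2.68 CPM, and these counts do not tell the transgene's transcripts from those of the mouse's own gene. The receptor genes Bmpr1a, Bmpr2 and Acvr1 were within 2-fold, at -0.42, -0.34 and -0.31. The targets Id1 (24.0 to 61.3 CPM), Id2 (6.13 to 18.7 CPM) and Id3 (33.6 to 91.7 CPM) rose. The ligand was thus lower at day 1 and the Id genes higher.

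Vessel genes stayed mostly within 2-fold. Of 26 endothelial genes 6 fell and 2 rose, a median of -0.37 (-0.58 with TMM factors), though the summed level was higher at 0.18. The receptors of vessel growth Tek (24.4 to 6.38 CPM) and Kdr (25.7 to 10.4 CPM) and the junction gene Cdh5 (116 to 41.6 CPM) fell, while Pecam1 and Esam, found on all endothelium, were at -0.36 and -0.0028. P-selectin (Selp), which catches leukocytes, went from 1.14 to 8.76 CPM. Rgcc, a cell cycle regulator also made outside vessels, went from 38 to 583 CPM. Of 15 mural genes 4 fell and 2 rose, a median of -0.46 (-0.66 with TMM factors) with a summed level that rose through Mustn1, and Rgs5, the pericyte gene, went from 369 to 101 CPM. Of 5 red cell genes 3 fell and none rose, a median of -1.05 (-1.26 with TMM factors), with the beta globin gene Hbb-bs at 683 and 383 CPM. Of 16 myogenic genes 4 fell and 1 rose, a median of -0.40 (-0.61 with TMM factors), above 0 only for the summed level. Myf6, the factor of mature fibres, went from 90.1 to 253 CPM, and Myod1 and Myog were at 0.34 and -0.71. Mymk, which fuses muscle cells, fell from 10.0 to 1.01 CPM.

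Several further lists had a median within 2-fold. For comparison, 16.0% of all measured genes rose and 8.60% fell. The glucocorticoid response had 3 of 20 up and 2 down, a median of -0.12 (-0.32 with TMM factors) with a summed level that was higher, at 1.67, since Mt1 and Mt2 are members. Fkbp5, its classic target, went from 18.0 to 43.7 CPM, and Tsc22d3 and Per1 were within 2-fold at 0.22 and -0.015. Adipocyte genes had 1 of 17 up and 2 down, a median of 0.21 that lay just below 0 with TMM factors. Adiponectin (Adipoq), which only fat cells make, was at 17.5 and 21.5 CPM, and Thrsp, of fat synthesis, fell from 51.9 to 13.3 CPM. Of 5 measured Schwann cell and nerve genes 1 fell and none rose, a median of -0.62 that was above 0, at 0.20, with the mean over spots of each spot's CPM. The myelin gene Mbp was at 36.3 and 33.9 CPM. Of 10 EGF and other growth factor genes 1 fell and none rose, a median of 0.024, below 0 with TMM factors. Among nuclear noncoding RNAs 4 of 12 rose and 3 fell, a median of 0.39 (0.18 with TMM factors). Malat1, the most abundant of them, was at 401 and 411 CPM.

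Families formed from the first letters of the gene symbols, 126 with at least 10 measured genes, gave a view that used no list. The highest medians were those of Ccl (3.42), Clec (2.92), Ifi (1.40), Rps (1.35), Rpl (1.29) and S, which is led by the S100 genes (1.27). The lowest was that of Col at -2.07, with 19 of 25 genes down and none up. The next lowest were close to the bulk of genes, with Arhgef, exchange factors of small GTPases, at -0.511, Sema, the semaphorin guidance proteins, at -0.463, Tspan, the tetraspanins, at -0.418, Coq, enzymes of coenzyme Q synthesis, at -0.411, and Kif, the kinesin motors, at -0.368. Members measured through day 1 only add to the high medians of Ccl and Clec. Collagens were the one such symbol family far below 0, while several stood far above it.

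Genes that rose also lay side by side on chromosomes. Besides the metallothioneins, 5 runs of at least 5 adjacent measured genes all rose, and no such run all fell. Since 16.0% of all measured genes rose and 8.60% fell, a run of falling genes was the less likely to occur. How many runs would arise by chance was not worked out. The longest was a run of 7 C-type lectin receptor genes of myeloid cells from Clec4a1 to Clec4e at chr6:122921848-123289871, with a median log2 ratio of 3.51. A run of 6 at chr11:114889152-115181178 held 5 Cd300 receptor genes and Slc9a3r1, at 4.14, and a run of 5 at chr11:83002125-83226584 held the Slfn genes of growth arrest, at 4.35. Slfn4 in it had 6 UMIs at day 0 and 770 at day 1. A run of 5 at chr17:34119693-34201454 in the major histocompatibility complex held H2-DMa, H2-DMb1, Psmb9, Tap1 and Psmb8, which cut, carry and load peptides, at 2.08. The last, of Mms19, Ubtd1, Ankrd2, Pi4k2a and Avpi1 at chr19:41943707-42128993, had a median of 1.15. The lowest log2 ratio in that run was 1.09, and that of Nup93 in the metallothionein run was 1.17. With TMM factors, which lowered all log2 ratios by 0.21, neither reached 2-fold. Clec4, Cd300 and Slfn genes are close copies of each other, and reads that could not be told apart between them limit the value of any single one. The same holds for Aldoart1 (149 to 12.1 CPM), a copy of Aldoa (11394 to 7263 CPM).

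The share of spots with a UMI of a gene was taken from spots thinned to 2000 UMIs each, which left 2090 spots of day 0 and 2154 of day 1. A UMI of the 20 genes with the largest ratios was found in a median of 0.418% of spots at day 0 and 20.7% at day 1. These shares ranged widely. Mustn1 was seen in 9.0% (95% interval 7.80 to 10.3) and 89.7% (95% interval 88.3 to 90.9) of spots, and S100a4 in 3.65% and 62.3%. The intervals of such shares, here and below, rest on the expected number of spots and treat spots as independent. They cover counting error only, not likeness of neighbouring spots or the spread between animals or sections. S100a9 was seen in 0.0833% and 10.1%, Ccl7 in 0.0277% and 22.9% and Prg4 in 0.199% and 12.1%. Without thinning, Mustn1 was seen in 50.4% and 93.4% of spots. Such shares depend on the level of a gene, and the thinned spots of day 1 held 14106 UMIs of Mustn1, 301 of S100a9 and 401 of Prg4, so that a spot without a UMI does not show that the gene was absent there.

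The share of UMIs in the richest spots of day 1 also depends on the count, and was set against genes with like counts. The 10% of spots richest in S100a9 held 96.7% of its UMIs, against a median of 81.0% for genes with like counts. For Prg4 the share was 86.3% (like genes 64.7%), for Spp1 78.0% (47.4%) and for Ccl7 65.8% (45.1%). Mustn1, at 31.6% (21.4%), and Cryab, at 27.7% (21.3%), were above the median of their like genes. Of 50 like genes each, 5 had as high a share as Mustn1 and 8 as high as Cryab. For S100a9, Prg4, Spp1 and Ccl7 the numbers were 0, 1, 2 and 3. Free RNA that spreads between spots gives each gene a low background, and its part in these shares was not tested.

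The 20 genes with the smallest ratios went the other way, from a median of 24.6% of spots to 3.17%. Actc1 was seen in 99.3% (95% interval 98.9 to 99.6) of spots at day 0 and 33.8% (95% interval 31.8 to 35.9) at day 1, H19 in 72.9% and 9.78%, and Aqp4 in 10.5% and 0.423%. Col1a1 was seen in 90.3% and 26.6%. At day 0 Col1a1 was more concentrated than most of its like genes, with 41.1% of its UMIs in the richest 10% of spots against their median of 20.5%. Actc1 was close to the median of its like genes, at 19.9% against 17.4%.

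**Figure D4:**
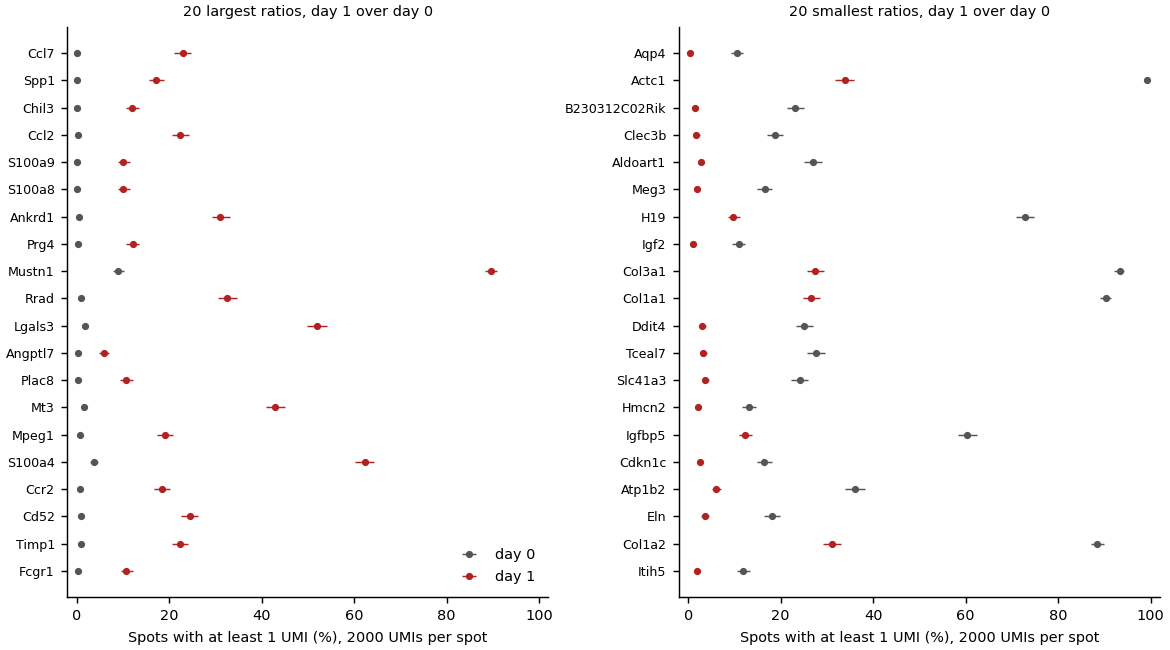
Share of spots with at least 1 UMI after thinning every spot to 2000 UMIs, in percent, at day 0 and day 1, for the 20 genes with the largest ratios and the 20 with the smallest, with exact 95% binomial intervals. The intervals treat spots as independent and do not cover the spread between sections. Mustn1 reached 89.7% of spots at day 1, while most of the other risers stayed under 50%, and every gene of the smallest ratios was seen in fewer spots at day 1.

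The sections of days 3 and 7 place the day 1 values in time. Of the 20 genes with the largest ratios, 10 had their highest level of the 4 sections at day 1, 10 at day 3 and none at day 7. Ankrd1 was at 2.78, 282, 233 and 35.0 CPM at days 0, 1, 3 and 7, and Mustn1 at 52.9, 3408, 751 and 259 CPM. Spp1 was at 0.251, 141, 969 and 96.9 CPM, so that it climbed on after day 1, whereas Ccl7 was about equal at days 1 and 3, at 164 and 162 CPM. Ankrd1, Mustn1, S100a8 and S100a9 were highest at day 1, and Spp1 was highest at day 3. At day 7, 10 of the 20 were still at 10 times their day 0 level or more. Of the 20 genes with the smallest ratios, 18 had their lowest level at day 1 and 2 at day 3, and 10 were above day 0 by day 7. Col1a1 was at 2253, 214, 1309 and 10599.9 CPM and H19 at 694, 61.2, 206 and 1521 CPM. These 20 were chosen for a low day 1 level, which favours day 1 as the lowest section. Of all 2492 genes that reached 50 CPM at day 0 or day 1, 24.2% were lowest at day 1 and 19.1% highest.

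**Figure D5:**
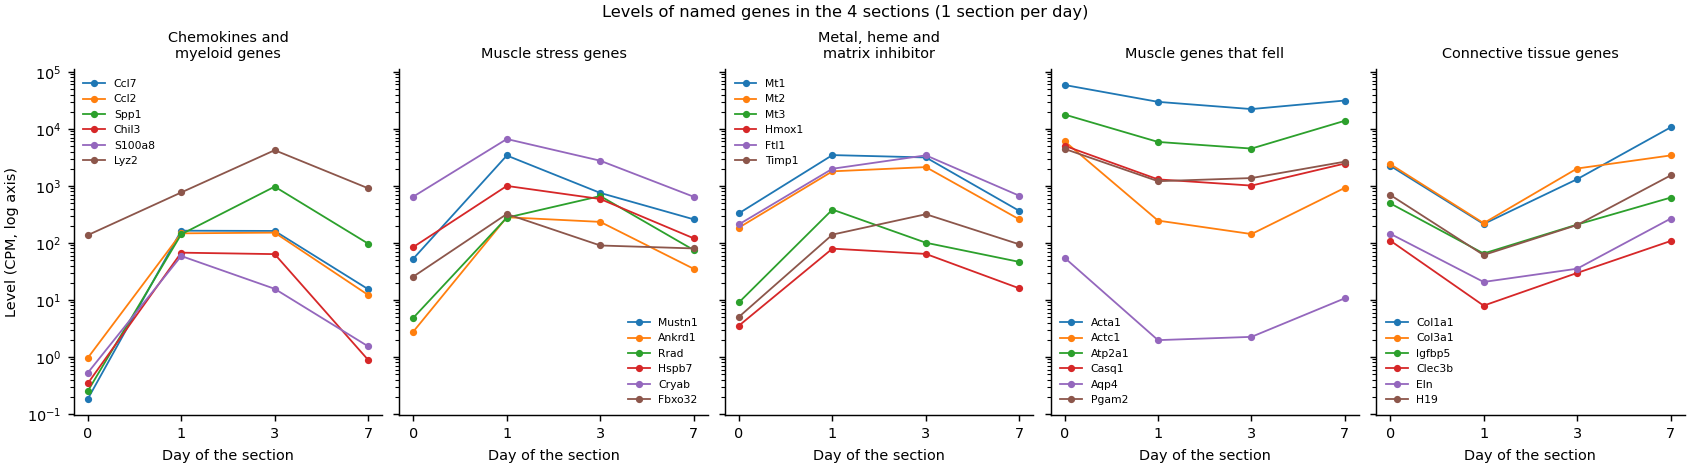
Levels in CPM (log axis) in the sections of days 0, 1, 3 and 7, 1 section a day, in 5 panels (chemokine and myeloid genes, muscle stress genes, metal and heme genes with Timp1, muscle genes that fell, connective tissue genes). Ankrd1 and Mustn1 were lower at days 3 and 7 than at day 1, and Spp1 reached 969 CPM at day 3. Among connective tissue genes Col1a1 was lowest at day 1.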

How the data were processed

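Spatial libraries of 1 tissue section per day (days 0, 1, 3 and 7) were made by the authors with Space Ranger, version 1.2.0 per the file headers (the methods name another version), on build mm10 per the labels. The deposited matrices hold whole UMI counts per gene and tissue-covered spot, with no normalization. Aligner settings and annotation version are not given in the sources used here. The submitters' text on normalized aggregate data was not borne out by these matrices, whose values are whole and whose totals differ between sections.

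Counts of all spots were summed per gene with pandas 2.3.3 in Python 3.11.15, with intervals from SciPy 1.17.1, and scaled to 1000000 UMIs per section to give CPM. For 38 symbols on several rows the row with most UMIs was used in the gene lists and isoform pairs. In the counts over all genes, the symbol families and the gains and losses each row was kept as a gene. Genes of at least 5 CPM in either section were kept, counts under 3 were entered at 3, and 95% intervals are exact conditional Poisson intervals, with Clopper-Pearson intervals for shares of spots. TMM factors came from edgeR 4.0.16 and size factors from DESeq2 1.42.0 (R 4.3.3). No test was run, since a day is 1 section. The calculation was tested on simulated data.

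The comparison and the gene lists, with 1379 of their 1386 symbols among the features, were chosen with earlier results of these data known, and the ribosomal protein and imprinted gene lists after the values were seen. Genes were named by rule: the 20 largest and 20 smallest ratios at 50 CPM or more, the 15 largest gains and losses outside the mitochondrial genome, each list's steepest and most abundant members, the 10 highest level genes, and 5 unnamed loci each way. Other list members were picked for their role after values were seen. Some genes that fit the rule are not reported here. Promoters were taken from RefSeq on GRCm38.p6, and 180 of 232 named genes matched an entry. Their motifs were chosen after the ratios were known. The table gave no promoter for the remaining named genes.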

Additional observations from a re-analysis of the deposited data

How the results depend on the processing

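The counts of genes at least 2-fold apart depended most on the unit and on the filter for low levels. With at least 20 CPM required in either section 929 genes were higher and 494 lower, and with at least 1 CPM 2216 were higher and 1331 lower. In UMIs per spot, an alternative chosen after seeing the data, 280 were higher and 7581 lower, and the median log2 ratio of all genes was -1.52, which follows from the lower number of UMIs per spot. TMM factors set that median at -0.0042. The split of 1599 higher against 860 lower genes became 1187 against 1201 with TMM factors, 1206 against 1180 with DESeq2 size factors, 1268 against 1115 with totals that left out mitochondrial, haemoglobin and fibre genes, and 2091 against 807 with the mean over spots of each spot's CPM. It stayed near the first values when spots under 2000 UMIs were left out (1552 against 874), when day 0 was thinned to the total of day 1 (1605 against 874) and when 5 CPM was required of the mean (1385 against 751). Of the 172 named genes past 2-fold, all kept their direction under these 6 changes of scaling, spots and depth, and 168 to 172 stayed past 2-fold. So did all 26 lists with a median past 2-fold, 22 to 26 of which stayed past it. Adding up a list's UMIs in place of taking the median turned the direction for the slow sarcomere list (-0.79) and the lymphocyte list (-0.058), and the other 24 kept theirs. All 40 directions of the shares of spots held at 1000 and at 4000 UMIs per spot. No paired analysis was possible because each day has 1 section, and no replicate could be left out. Differences between animals, sections and array slides cannot be told apart from the effect of injury. Of the 9996 genes, 14 had under 3 UMIs at day 0, and the median half-width of the counting interval was 0.20 on the log2 scale.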

Other observations

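Several pairs of genes encode a muscle form and another form of the same protein. These pairs were picked after the values had been seen, so their tally describes these pairs only. The other form is not always a general one. Of 18 pairs with both forms measured, the other form had the higher log2 ratio in all 18. In 15 the muscle form was lower and the other form higher at day 1. Ampd1, the muscle AMP deaminase, went from 909 to 235 CPM, while Ampd3 went from 6.31 to 52.7 CPM. Ampd3 thus went from under 1% to nearly 1 in 5 transcripts of the pair, since the share of Ampd1 went from 99.3% to 81.7%. For the elongation factor the share of the muscle form Eef1a2 went from 74.0% to 19.9%, and for ribosomal protein L3 that of Rpl3l went from 81.9% to 30.2%. In glycolysis, Pgam2 fell from 4458 to 1208 CPM and Pgam1 rose from 34.3 to 93.1 CPM, and Eno3 and Eno1 had log2 ratios of -1.27 and 0.88. The glucose transporter of muscle, Slc2a4, was at a log2 ratio of -0.82 and the general Slc2a1 at 1.95. The calcium pumps Atp2a1 and Atp2a2 were at -1.60 and 0.78, and muscle and brain creatine kinase, Ckm and Ckb, at -1.02 and 0.51. Ldha and Ldhb, both lower at day 1, were at -0.94 and -0.20. Hk2 and Hk1, both higher, were at 0.35 and 1.04.

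Imprinted genes of growth, expressed from 1 parental copy, were another group noticed in the data. Of 18 measured genes 14 fell and 1 rose, and the median log2 ratio was -1.92 (-2.13 with TMM factors). Of these 18, 6 reached 5 CPM at day 0 only and 1 at day 1 only, which fixed their direction. H19, a noncoding RNA, went from 694 to 61.2 CPM and Igf2, its neighbour, from 58.8 to 5.30 CPM. Meg3, Rian and Mirg, noncoding RNAs of another imprinted cluster, went from 111 to 9.48 CPM, from 29.6 to 2.74 CPM and from 7.98 to 0.477 CPM, and Dlk1 of the same cluster from 15.1 to 2.38 CPM. Cdkn1c, an inhibitor of cell division, went from 95 to 12.8 CPM and Grb10, an adaptor of insulin signalling, from 71.7 to 15.8 CPM. Nnat was the one that rose, from 4.31 to 22.7 CPM, and Gnas and Impact were within 2-fold, at -0.27 and 0.48. H19 was back at 1521 CPM at day 7 and Meg3 at 136 CPM.

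Clock genes differed between the sections in opposite directions. Arntl, the activator of the clock, went from 27.4 to 3.70 CPM and Nfil3 from 101 to 18.1 CPM, whereas Dbp, an output gene in the opposite phase, went from 9.05 to 63.7 CPM and Nr1d1 from 34.1 to 74.7 CPM. Of 16 measured clock genes 4 rose and 3 fell, with a median of 0.17 that falls to -0.033 with TMM factors. The time of day at which the muscles were taken is not given in the sources used here, and its part in these values was not tested.

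The lowest ratio belonged to a gene below the level used for naming genes. Kcne1l, a potassium channel subunit, had 726 UMIs at day 0 and 3 at day 1, a log2 ratio of -6.53 (-8.81 to -4.98), the lowest of all measured genes. Among unnamed loci, Gm10076 rose from 29.0 to 209 CPM and B230312C02Rik fell from 136 to 7.09 CPM.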
